A study of Mus musculus with 8 samples.

Results

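Bulk RNA-seq of cultured hippocampal neurons was searched for the genes of 3 families of guidance cues and their receptors, namely the semaphorins with the plexins and neuropilins, the ephrins with the Eph receptors, and the Slits with the Robos. Genes were taken by symbol and were members when at least 10 counts were estimated in at least 4 of the 8 wells. Of 63 genes with a matching symbol, 57 were members, out of 45706 genes in the table. The members were 31 ligands (20 semaphorins, 8 ephrins and 3 Slits) and 26 receptors (8 plexins, 2 neuropilins, 13 Eph receptors and 3 Robos). The other 6 were *Epha1*, *Plxnb3* and *Robo4*, which had at most 4, 4 and 8 counts in any well, and 3 antisense genes at the *Plxna4* locus.

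The neurons came from C57/Bl6 wild-type mouse embryos at embryonic day 18. After 12 to 14 days in vitro they were treated for 4 h with 1 µM melanin-concentrating hormone (MCH), a hypothalamic neuropeptide, or with water as vehicle. There were 4 wells per treatment, numbered as replicates 1 to 4, from 2 independent cultures with 2 wells per treatment each. Neither the labels nor the methods say which replicate came from which culture. Since each culture gave 2 wells per treatment, the 4 wells are not 4 independent replicates. The *P* values measure the spread between wells, which is partly technical, and not the spread between independent cultures. One label entry names Alzheimer's disease as the model, although the genotype entry is wild type. All wells had received 10 µM 5-fluoro-2′-deoxyuridine on day 3, which limits the growth of glia. The purpose of the experiment was to find transcripts that respond to the peptide.

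Semaphorins, ephrins and Slits steer growing axons by binding receptors on the growth cone. Most secreted class 3 semaphorins bind neuropilins, which lack a signaling domain of their own and work together with A-type plexins. By contrast, most membrane-bound semaphorins bind plexins directly. Ephrins are anchored to the membrane and activate Eph receptor tyrosine kinases on the neighboring cell, and they can also signal back into the cell that carries them. Slits are secreted and repel axons through Robo receptors. In the mature hippocampus the same molecules take part in spine formation, synapse maturation and plasticity.

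Markers of neurons and of astrocytes were present in every well. Estimated counts per well totaled 26083936 to 31844861. Levels of a gene between wells are given in CPM, that is, counts scaled to a common library size. The summed CPM of 10 neuronal markers ranged from 8246 to 9286, of 9 inhibitory neuron markers from 2228 to 2997, of 9 astrocyte markers from 1095 to 2682, of 10 markers of the oligodendrocyte lineage from 68.3 to 169.7, of 8 microglial markers from 5.91 to 13.7 and of 10 markers of fibroblasts and vessels from 22.1 to 66.6. *Sox10*, *Mog* and *Mag*, which define oligodendrocytes, and *Tmem119*, which defines microglia, had at most 3 counts in any well. The wells of replicates 1 and 2 stood apart from those of replicates 3 and 4 in both treatments. They did so along the first principal component of log CPM from which the treatment means had been subtracted. This component held 59.8% of the variance within treatments, a share that leaves out the difference between MCH and vehicle. In bulk RNA, fewer cells of a type and less RNA per cell cannot be told apart.

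Transcripts of all 3 systems were detected in the cultures, and the levels are those of whole wells, not of neurons alone. Levels between genes are compared here only in TPM, the transcript levels scaled for length and depth, summed to genes. Among the ligands, *Efnb3*, a transmembrane ephrin, was highest with 146.4 ± 24.3 TPM (SD, n = 8 wells). It was followed by *Efna3*, a lipid-anchored ephrin, with 81.6 ± 11.6 TPM, and *Slit1* with 76.3 ± 12.6 TPM. *Efnb2* had 54.6 ± 5.65 TPM, and *Sema6b*, a transmembrane semaphorin, was the highest semaphorin with 46.6 ± 3.37 TPM. Among the receptors, *Epha4*, which binds ephrins of both the A and the B class, had the highest mean with 90.4 ± 12.02 TPM. *Nrp1*, a co-receptor for class 3 semaphorins, had 77.6 ± 9.42 TPM, *Epha5* had 73.7 ± 9.34 TPM, *Plxna1* had 64.9 ± 6.07 TPM and *Nrp2* had 54.6 ± 2.45 TPM. Over the wells, *Epha4* ranged from 71.2 to 105.1, *Nrp1* from 68.0 to 91.3 and *Epha5* from 62.3 to 87.4 TPM. *Efna3* ranged from 63.4 to 92.5, *Slit1* from 57.6 to 92.2 and *Plxna1* from 57.6 to 77.3 TPM. These ranges overlapped, so that the order of these genes is not resolved.

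The median level was 15.8 TPM for the ligands and 20.6 TPM for the receptors. The plexins and neuropilins had a lowest mean of 7.39 TPM (*Plxnb1*), and 9 of 10 lay above 10 TPM. The Robo receptors were sparse against their ligands. *Robo2* had 22.3 ± 2.49 TPM, *Robo1* 13.5 ± 1.76 TPM and *Robo3* 0.592 ± 0.189 TPM, whereas *Slit3* and *Slit2* had 44.1 ± 4.01 and 30.5 ± 4.75 TPM beside *Slit1*. Summed over the 3 genes of each family, Slit levels were 4.16 times the Robo levels. The corresponding ratio was 1.05 for ephrins over Eph receptors and 0.910 for semaphorins over plexins and neuropilins. Class 3 semaphorins were low, apart from *Sema3e* (15.8 ± 1.22 TPM) and *Sema3c* (9.11 ± 1.44 TPM). *Sema3a*, the best known repellent of the class, had 2.71 ± 0.285 TPM, and *Sema3d* had 0.360 ± 0.073 TPM. The lowest member was *Sema3g*, with 0.122 ± 0.050 TPM and 2 to 13 counts per well, and it failed the filter on low counts that left the other 56 members for testing. Under 1 TPM lay 4 ligands and 3 receptors.

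**Figure D1:**
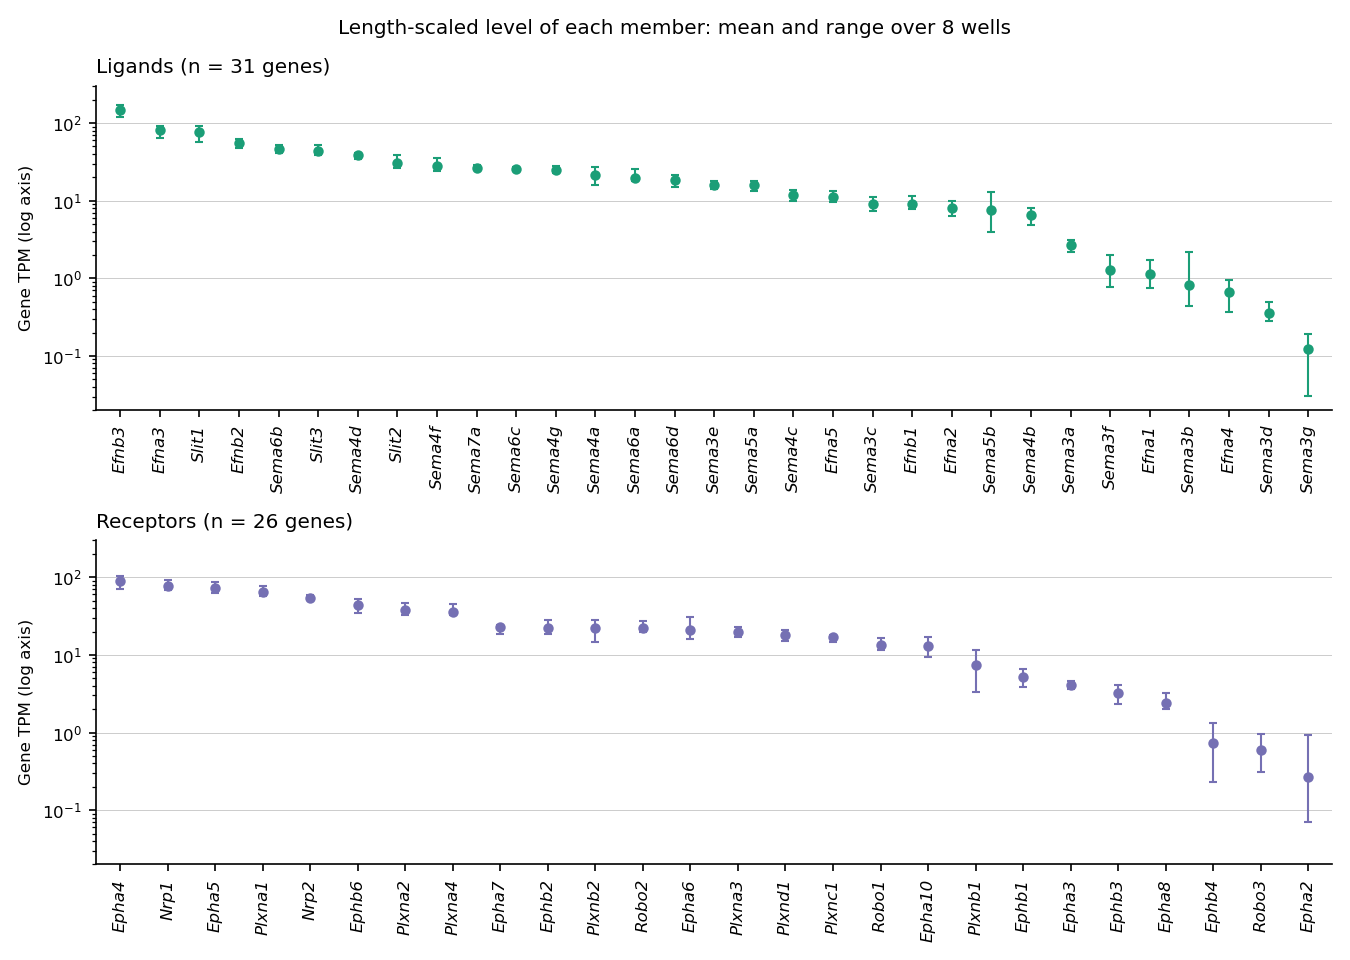
Mean gene TPM of each of the 31 ligands (top) and 26 receptors (bottom) on a log axis, ordered by level, with bars from the lowest to the highest of the 8 wells. Levels run from 146.4 TPM for *Efnb3* to 0.122 TPM for *Sema3g* among the ligands and from 90.4 TPM for *Epha4* to 0.268 TPM for *Epha2* among the receptors.

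Differences between MCH-treated and vehicle-treated wells were small. Fitted levels of *Nrp1*, *Epha4* and *Robo1* were 21.1%, 18.4% and 15.6% higher after MCH, and the level of *Efnb2*, an ephrin ligand, fell by 10.6%. Over all 8 wells, *Epha4*, *Robo1* and *Efnb2* passed in the edgeR fits with a block and not in the one without, and *Nrp1* passed with a block and in DESeq2. With the length offset the log2 fold change of *Efnb2* was -0.09, and without MCH replicate 2 it was -0.10, against -0.16. No member passed the quasi-likelihood test of edgeR without a block, in which 0.234% of 14962 genes passed at a Benjamini–Hochberg adjusted *P* under 0.05. With limma voom the count was also 0, and with DESeq2 it was 1 (*Nrp1*), where 1.14% of all genes passed. At an unadjusted *P* under 0.05, 8 members of 56 (14.3%) passed in edgeR, against 8.5% of all genes. They were *Nrp1*, *Sema6a*, *Plxna1*, *Plxnc1*, *Ephb2*, *Epha4*, *Sema3e* and *Robo1*, and *Sema6a* was the one with the lower level after MCH.

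Wells with the same replicate number deviated together from their treatment means, as did wells of different number on the same side, that is, replicates 1 and 2 or replicates 3 and 4. Wells of equal number did so no more closely than other wells of the same side, and the labels do not show that they belong together. A block leaves the spread between its groups of wells out of the error. The comparison was also made with the replicate number as a block, which assumes a pairing by number that was not shown. Then 5 members of 56 passed (8.93%), where 3.98% of all genes did. These were *Epha4*, *Nrp1*, *Robo1* and *Ephb2*, which were higher after MCH, and *Efnb2*, which was lower. With a block that only parts replicates 1 and 2 from 3 and 4, 6 members passed (10.7%), where 4.46% of all genes did. *Nrp1*, *Epha4*, *Robo1* and *Efnb2* passed again, *Ephb2* did not (adjusted *P* = 0.0556), and *Plxnc1* (adjusted *P* = 0.0379) and *Sema6a* (adjusted *P* = 0.0465) did. In either block, the 4 called receptors were higher after MCH. The called ligands were lower, but they were only 1 gene with the replicate block and 2 with the other. Of 30 tested ligands, 21 had a log2 fold change above 0 in the fit without a block.

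*Nrp1* (ENSMUSG00000025810, GRCm38 chr8:128358604-128503363, plus strand) had the highest log2 fold change of all members. Its level in vehicle replicates 1 to 4 was 232, 231, 242 and 228 CPM, and in MCH replicates 1 to 4 it was 294, 302, 262 and 272 CPM. Every MCH-treated well lay above every vehicle-treated well. Means were 233 ± 6.04 and 283 ± 18.9 CPM (SD, n = 4 each), a log2 fold change of 0.28 (SE 0.05). The adjusted *P* was 0.0838 in edgeR without a block, 0.00124 with the replicate block, 1.35e-04 with the block of the replicate pairs and 1.75e-04 in DESeq2. The log2 fold change was 0.38 within replicates 1 and 2 and 0.19 within replicates 3 and 4, and both passed (adjusted *P* = 0.0021 and 0.0178 in edgeR). Each of these fits compared 2 wells with 2 wells, which may come from a single culture. All of the gene's TPM fell on one transcript, *Nrp1-201*, a protein-coding transcript of 5907 bases. Its sister gene *Nrp2* had a log2 fold change of 0.05 (SE 0.04, adjusted *P* = 0.836).

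*Plxna1* (chr6:89316314-89362620, minus strand) encodes a plexin that signals for the neuropilins. Its levels were 312, 303, 331 and 317 CPM in the vehicle-treated wells and 396, 348, 340.04 and 332 CPM in the MCH-treated wells. The treatments did not overlap, with MCH replicate 4 just above vehicle replicate 3, and the log2 fold change was 0.17 (SE 0.06, adjusted *P* = 0.439, and 0.113 with the replicate block). Without MCH replicate 1 it was 0.11. *Plxnc1*, the receptor of *Sema7a*, had 58.5, 60.6, 68.0 and 64.9 CPM against 67.8, 69.4, 69.3 and 70.9 CPM. The wells overlapped only through vehicle replicate 3 and MCH replicate 1, and the log2 fold change was 0.14 (SE 0.05, adjusted *P* = 0.466, and 0.057 with the replicate block). *Plxna2* and *Plxna4* had log2 fold changes of 0.14 and 0.12, *Plxna3* of 0.0032 and *Plxnd1*, the receptor of *Sema3e*, of -0.08, and none of these passed in any of the fits above.

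Among the Eph receptors, *Epha4* (ENSMUSG00000026235, chr1:77367185-77515088, minus strand) had the highest mean TPM and the highest log2 fold change. It had 273, 248, 230.3 and 215 CPM in vehicle replicates 1 to 4 and 314, 319.98, 249.6 and 261 CPM in MCH replicates 1 to 4. The treatments overlapped, since both vehicle and MCH levels were higher in replicates 1 and 2, but the MCH-treated well was higher in all 4 pairs of equal number. The means were 242 ± 24.9 and 286 ± 36.1 CPM (SD, n = 4 each) and the log2 fold change was 0.24 (SE 0.10, adjusted *P* = 0.559). With the replicate block the SE dropped to 0.04 and the adjusted *P* to 9.44e-04. The log2 fold change was 0.30 within replicates 1 and 2 and 0.20 within replicates 3 and 4 (adjusted *P* = 0.0144 and 0.015 in edgeR, 2 wells per treatment).

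*Ephb2*, which acts at excitatory synapses and binds NMDA receptors, had 65.8, 63.7, 68.2 and 59.0 CPM in the vehicle-treated wells and 77.3, 70.9, 68.5 and 69.2 CPM in the MCH-treated wells. The treatments did not overlap, with MCH replicate 3 just above vehicle replicate 3. The log2 fold change was 0.16 (SE 0.06, adjusted *P* = 0.466, 0.045 with the replicate block and 0.0556 with the block of the replicate pairs). It was 0.21 within replicates 1 and 2 and 0.11 within replicates 3 and 4, and neither passed (adjusted *P* = 0.102 and 0.495 in edgeR). *Epha6* had 39.3, 39.9, 35.4 and 30.2 CPM against 56.2, 48.4, 32.7 and 33.8 CPM. It was higher after MCH within replicates 1 and 2 (log2 fold change 0.42, adjusted *P* = 0.023 in edgeR) and had a log2 fold change of 0.02 within replicates 3 and 4. A test of that difference did not pass with the filter on low counts (adjusted *P* = 0.407). Without MCH replicate 1 the log2 fold change over all wells, 0.24, dropped to 0.08. *Epha5* and *Epha7*, both abundant, had log2 fold changes of 0.04 and -0.0029 in the fit without a block.

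The lowest fold changes belonged to scarce receptors. *Ephb4*, known from blood vessels, had 0.852, 0.870, 2.89 and 3.12 CPM in vehicle replicates 1 to 4 and 0.735, 0.488, 2.56 and 1.69 CPM in MCH replicates 1 to 4. It was lower after MCH in all 4 pairs, with a log2 fold change of -0.50 and an SE of 0.62 (adjusted *P* = 0.928, and 0.217 with the replicate block). *Epha2* lay between 0.128 and 0.635 CPM and 4 to 18 counts per well, and its log2 fold change was -0.31 (SE 0.59, adjusted *P* = 0.986). Both values rested on few counts, and the SE exceeded the difference in the fit without a block. For *Ephb4* the SE was 0.22 with the replicate block. Leaving out 1 well moved the log2 fold change of *Ephb4* to between -0.99 (without MCH replicate 3) and -0.17 (without vehicle replicate 4), with -0.23 without vehicle replicate 3, -0.29 without MCH replicate 1 and -0.22 without MCH replicate 2, and that of *Epha2* to between -0.65 and -0.022.

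*Robo1* (ENSMUSG00000022883, chr16:72308306-73046095, plus strand), a receptor for Slits, had 59.6, 56.0, 50.6 and 49.9 CPM in vehicle replicates 1 to 4 and 67.3, 70.7, 56.6 and 55.3 CPM in MCH replicates 1 to 4. The wells of the treatments overlapped, but each MCH-treated well was above the vehicle-treated well of its number. The log2 fold change was 0.21 (SE 0.09, adjusted *P* = 0.587, and 0.00847 with the replicate block). It was 0.27 within replicates 1 and 2 (adjusted *P* = 0.0375 in edgeR) and 0.15 within replicates 3 and 4, where it did not pass (adjusted *P* = 0.223). *Robo2*, the more abundant Robo, had 75.2, 74.6, 68.2 and 67.8 CPM against 76.6, 74.6, 64.4 and 68.7 CPM, a log2 fold change of -0.01 (SE 0.06, adjusted *P* = 0.936 with the replicate block).

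The Slits themselves did not pass in any fit of MCH against vehicle over all wells. *Slit1* had 213, 201, 173 and 163 CPM in the vehicle-treated wells and 247, 233, 168 and 174 CPM in the MCH-treated wells, so that the wells of replicates 1 and 2 were the higher ones in both treatments. Its log2 fold change was 0.13 (SE 0.15, adjusted *P* = 0.908, and 0.106 with the replicate block), while it was 0.23 within replicates 1 and 2 (adjusted *P* = 0.0339 in edgeR) and 0.03 within replicates 3 and 4 (adjusted *P* = 0.874). Leaving out 1 well moved the value over all wells to between 0.036 without MCH replicate 1 and 0.23 without MCH replicate 3, with 0.073 without MCH replicate 2, 0.078 without vehicle replicate 4, 0.21 without vehicle replicate 1 and 0.21 without MCH replicate 4. *Slit3* and *Slit2* had log2 fold changes of 0.13 and 0.10.

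Among the ligands, *Efnb2* (ENSMUSG00000001300, chr8:8617434-8661242, minus strand), a transmembrane ephrin that binds EphB receptors and EphA4, had 103, 104, 121 and 117 CPM in vehicle replicates 1 to 4 and 97.1, 88.1, 107 and 106 CPM in MCH replicates 1 to 4. It was lower in the MCH-treated well of every pair, although the treatments overlapped. The means were 111 ± 9.15 and 99.5 ± 8.72 CPM (SD, n = 4 each) and the log2 fold change was -0.16 (SE 0.08, adjusted *P* = 0.609, and 0.0118 with the replicate block). It was -0.14 within replicates 1 and 2 and -0.16 within replicates 3 and 4, and neither passed alone (adjusted *P* = 0.234 and 0.0735 in edgeR). *Efnb3*, the most abundant member, had 252 ± 43.9 CPM in vehicle-treated and 253 ± 44.1 CPM in MCH-treated wells, with a log2 fold change of 0.004 (SE 0.16). *Efna2* had 7.05, 7.25, 9.80 and 8.14 CPM against 8.40, 9.46, 10.8 and 9.79 CPM, a log2 fold change of 0.25 (SE 0.12, adjusted *P* = 0.627, and 0.0912 with the replicate block).

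*Sema6a*, a transmembrane semaphorin that binds A-type plexins, had the smallest SD within treatments relative to its mean of all members. Its levels were 53.1, 53.1, 55.0 and 53.1 CPM in the vehicle-treated wells and 49.1, 49.7, 47.9 and 48.6 CPM in the MCH-treated wells. The treatments did not overlap, and the log2 fold change was -0.13 (SE 0.03, adjusted *P* = 0.253, and 0.0744 with the replicate block). *Sema6b* had 84.4, 98.9, 97.5 and 93.0 CPM against 98.3, 107, 95.2 and 90.3 CPM, with a log2 fold change of 0.06 (SE 0.06, adjusted *P* = 0.89). *Sema3b*, at 0.447 to 1.37 CPM, had the lowest log2 fold change of the ligands (-0.17) with an SE of 0.37. The remaining tested semaphorins ranged from -0.10 (*Sema3a*) to 0.22 (*Sema4b*).

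**Figure D2:**
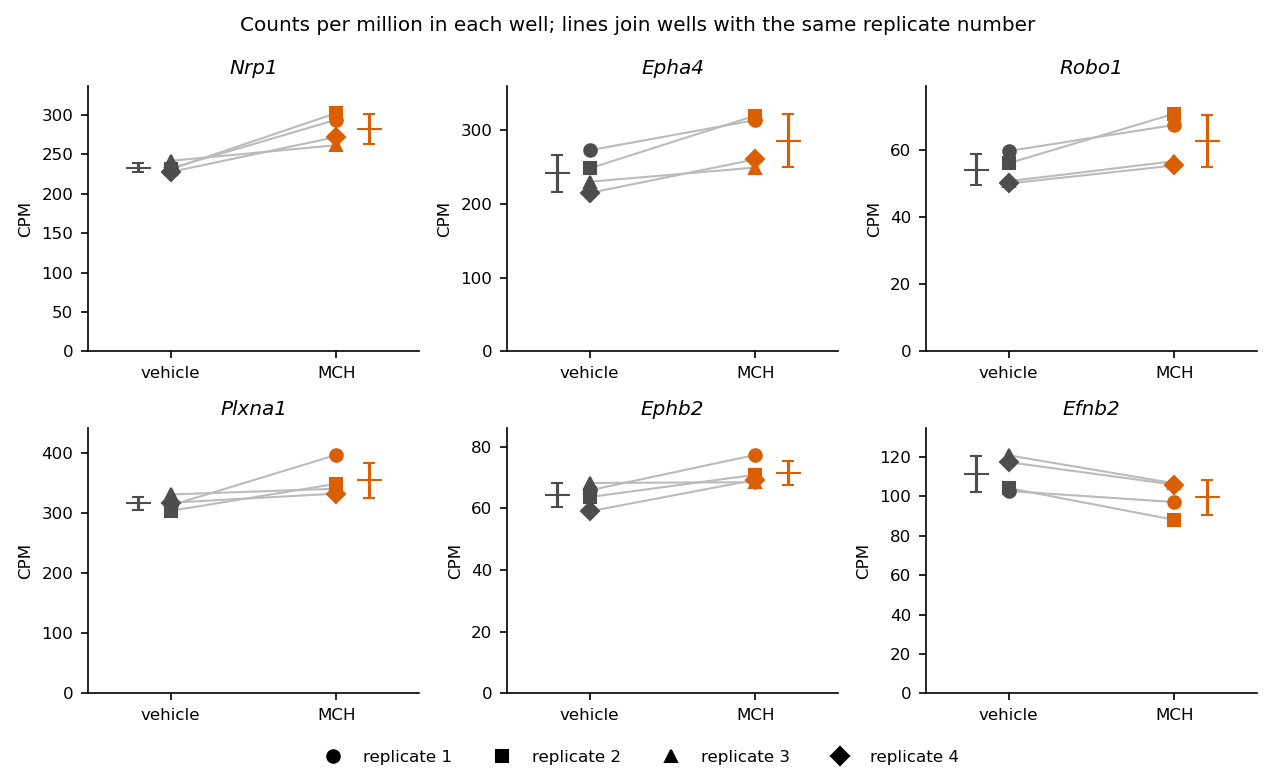
CPM of *Nrp1*, *Epha4*, *Robo1*, *Plxna1*, *Ephb2* and *Efnb2* in the 8 wells, with axes from 0; gray lines join wells of equal replicate number, and bars beside the points give the mean and SD of 4 wells. *Nrp1* had means of 233 and 283 CPM with no overlap between treatments, and *Efnb2* was lower in all 4 MCH-treated wells than in the vehicle-treated wells of equal number.

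Promoters are shown for members that passed with both blocks and whose main transcript starts at the RefSeq start, to show which letters these genes share. They are the 250 bases before the start on the strand of the gene, from RefSeq on GRCm38.p6. *Nrp1* is not shown, because *Nrp1-201* starts 211 bases away from the RefSeq start. Capitals mark TGACG on either strand, the core of the cAMP response element that CREB binds.
Epha4 (chr1:77515089-77515338, minus strand): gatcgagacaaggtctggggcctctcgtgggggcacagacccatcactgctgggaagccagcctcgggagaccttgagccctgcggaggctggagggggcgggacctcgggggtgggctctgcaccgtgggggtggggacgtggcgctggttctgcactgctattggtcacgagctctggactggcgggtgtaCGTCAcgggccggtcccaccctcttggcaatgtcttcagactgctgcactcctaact
Robo1 (chr16:72662899-72663148, plus strand): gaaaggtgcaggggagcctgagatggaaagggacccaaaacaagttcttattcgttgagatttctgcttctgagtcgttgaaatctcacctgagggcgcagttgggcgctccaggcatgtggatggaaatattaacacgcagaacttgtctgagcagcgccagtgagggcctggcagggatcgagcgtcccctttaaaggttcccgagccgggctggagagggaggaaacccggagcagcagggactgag
Efnb2 (chr8:8661243-8661492, minus strand): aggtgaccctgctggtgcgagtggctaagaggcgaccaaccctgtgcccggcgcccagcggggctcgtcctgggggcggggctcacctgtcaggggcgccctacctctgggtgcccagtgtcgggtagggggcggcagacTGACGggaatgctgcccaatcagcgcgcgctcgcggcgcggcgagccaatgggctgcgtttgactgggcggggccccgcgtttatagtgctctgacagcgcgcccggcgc
TGACG occurred once in the *Epha4* and once in the *Efnb2* promoter and was not found in that of *Robo1*. Of 32851 promoters in the RefSeq table, 17.8% held TGACG on either strand, 1.55% the complete element TGACGTCA, which contains TGACG on both strands, and 6.75% the AP-1 site TGANTCA. Of 66 promoters of 50 members, 6 held TGACG, 1 (*Epha2*) held TGACGTCA and 3 (*Sema4c*, *Sema4d* and *Sema6b*) held TGANTCA. A match describes the letters only.

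Ligands and receptors had nearly the same median fold change. The log2 fold change was above 0 for 19 of 26 receptors and for 21 of 30 tested ligands, and the medians were 0.06 and 0.05, against -0.0027 over all 14962 genes, of which 49.0% were above 0. The median of the receptors was 0.06, 0.10, 0.00 and 0.06 in pairs 1 to 4, and that of the ligands was 0.08, 0.08, -0.01 and 0.03. Both medians lay close to 0 in pair 3. Leaving out vehicle replicate 3 gave 0.16 for the receptors and 0.10 for the ligands, whereas leaving out vehicle replicate 1 gave 0.06 and 0.0028. The receptor median was also 0.13 without vehicle replicate 4 or without MCH replicate 2, and the ligand median 0.0054 without MCH replicate 3, 0.02 without vehicle replicate 2, 0.08 without vehicle replicate 4 and 0.08 without MCH replicate 2. By system, the median was 0.09 for the 10 plexins and neuropilins, of which 9 were above 0, and 0.01 for the 19 tested semaphorins. It was 0.04 for the 13 Eph receptors and 0.06 for the 8 ephrins, and 0.11 for the Robos and 0.13 for the Slits, with 3 genes each.

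The treatments did not overlap for 4 of 56 members (7.14%; *Nrp1*, *Plxna1*, *Ephb2* and *Sema6a*), against 6.03% of all genes, 3 of them receptors. In all 4 pairs of equal number, 13 members (23.2%) were higher after MCH, where 11.5% of all genes were. In the same 4 pairs, 5 members (8.93%) were lower, where 13.8% of all genes were. The labels do not show that wells of equal number belong together. Of the 13, 8 were receptors (*Nrp1*, *Epha4*, *Robo1*, *Ephb2*, *Ephb6*, *Plxna1*, *Plxnb2* and *Plxnc1*) and 5 were ligands (*Efna2*, *Efna3*, *Sema4b*, *Sema4d* and *Sema5a*). The 5 lower ones were *Efnb2*, *Sema6a*, *Epha2*, *Epha10* and *Ephb4*.

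**Figure D3:**
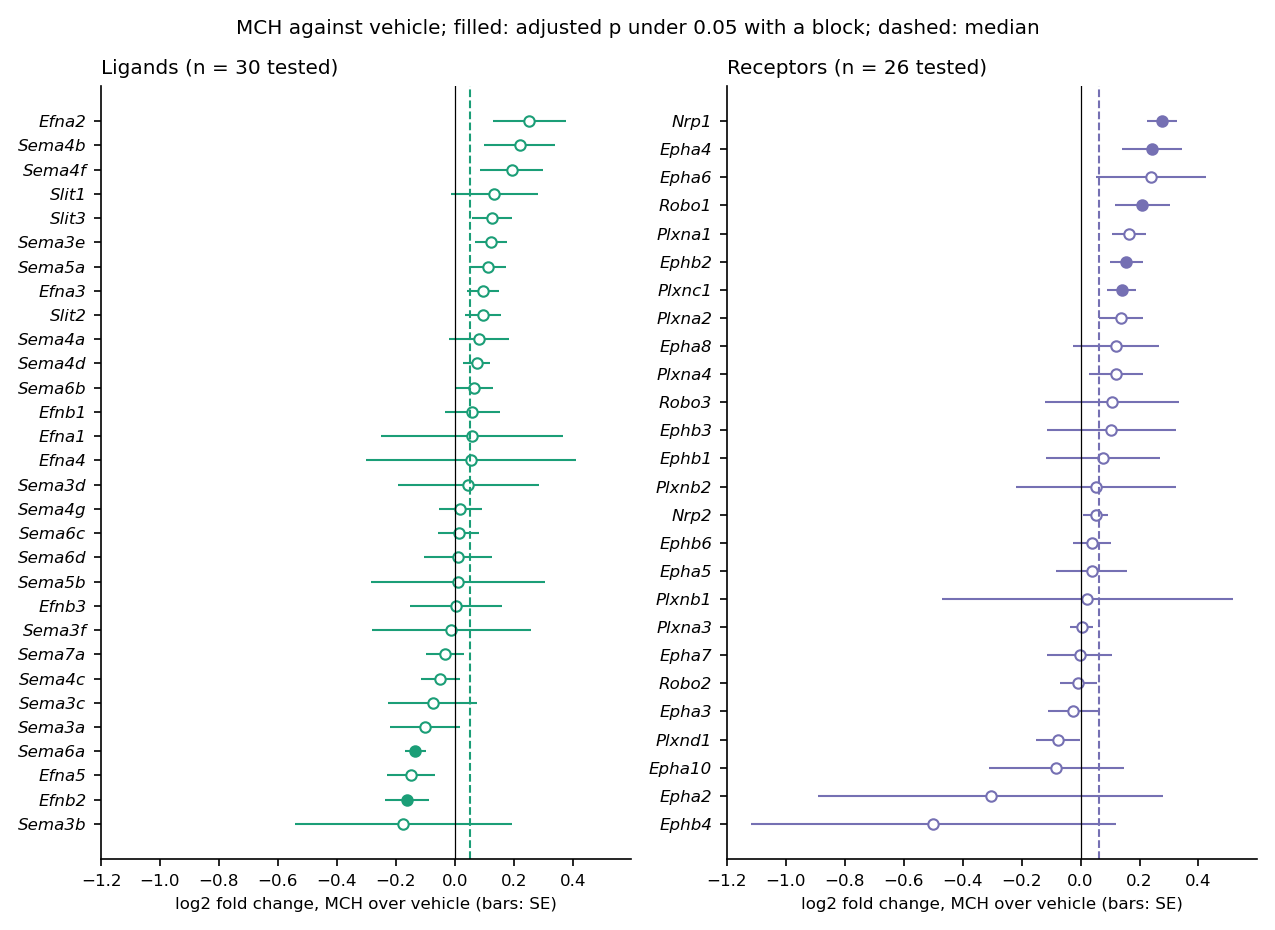
Log2 fold change of MCH over vehicle with its SE, from edgeR without a block, for the 30 tested ligands (left) and the 26 receptors (right), ordered by value; filled points had an adjusted *P* under 0.05 with a block of replicate numbers or of replicate pairs, and dashed lines mark the medians of 0.05 and 0.06. Filled receptors lie right of 0, led by *Nrp1* at 0.28, and the filled ligands *Sema6a* (-0.13) and *Efnb2* (-0.16) lie left of it. Of the 30 tested ligands, 21 lie right of 0.

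The summed level of the receptors was higher in every MCH-treated than in any vehicle-treated well, and that of the ligands overlapped. Receptor TPM summed to 690.4, 659, 661 and 634 in vehicle replicates 1 to 4 and to 769, 755, 695 and 693 in MCH replicates 1 to 4. The means of 661 ± 23.1 and 728 ± 39.4 TPM differed by 10.1%. In CPM they differed by 9.19%, again with no overlap but by a narrow margin. MCH replicate 3 (2429 CPM) lay just above vehicle replicate 1 (2422 CPM). No test was made of these sums, since the members were chosen with results known. Without *Nrp1* the difference was 8.61% in TPM, but MCH replicates 3 and 4 (616 and 611 TPM) then fell below vehicle replicate 1 (621 TPM). Ligand TPM summed to 728, 708, 819 and 801 in the vehicle-treated wells and 789, 791, 830.1 and 819 in the MCH-treated wells, with overlap and a difference of 5.66% between the means (3.49% in CPM). The ratio of ligand to receptor TPM was 1.16 ± 0.109 in vehicle-treated and 1.11 ± 0.0874 in MCH-treated wells. It was lower in the MCH-treated well of every pair of equal number. By system, only the ratio of semaphorins to plexins and neuropilins was lower in every pair. The ratio of ephrins to Eph receptors was higher after MCH in 1 pair and that of Slits to Robos in 2.

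**Figure D4:**
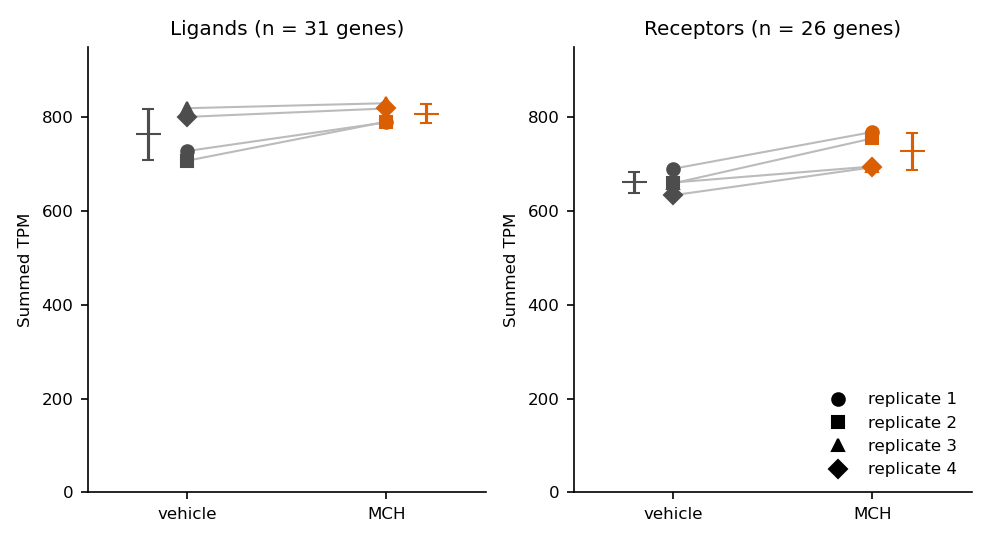
Summed TPM of the 31 ligands (left) and the 26 receptors (right) in each well, with axes from 0, gray lines between wells of equal replicate number, and the mean and SD of 4 wells beside the points. The receptor sums are 634 to 690.4 TPM in vehicle-treated and 693 to 769 TPM in MCH-treated wells, whereas the ligand sums overlap.

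Whether the MCH effect differed between replicates 1 and 2 and replicates 3 and 4 depended on the filter on low counts. In a test of that difference in edgeR with the filter, 0 members passed, where 0.0267% of all genes did. Without the filter 8 members passed (*Epha6*, *Nrp1*, *Plxna1*, *Plxna2*, *Plxna4*, *Slit1*, *Slit2* and *Slit3*), where 1.1% of 24132 genes did, each with the higher effect in replicates 1 and 2. With the filter and at an unadjusted *P* under 0.05, 9 members of 56 passed, against 7.6% of all genes. All 9 (*Epha6*, *Nrp1*, *Nrp2*, *Plxna1*, *Plxna2*, *Sema4f*, *Slit1*, *Slit2* and *Slit3*) had the higher log2 fold change within replicates 1 and 2, and the lowest adjusted *P* was 0.407. In fits within each pair of replicates, 6 members passed in replicates 1 and 2 (*Nrp1*, *Epha4*, *Epha6*, *Robo1*, *Sema4f* and *Slit1*), where 1.81% of all genes did. In replicates 3 and 4, 2 passed (*Epha4* and *Nrp1*), where 1.24% of all genes did. Both fits had 2 wells per treatment, which may come from a single culture.

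No transcript of a member passed its test. Of 315 transcripts of the members, 127 passed the filter on low counts, and 0 passed edgeR's test, where 0% of 33527 transcripts did. At an unadjusted *P* under 0.05, 7 of the 127 passed, against 4.4% of all transcripts, and the lowest adjusted *P* of a member transcript was 0.348 (*Nrp1-201*). *Robo1*, *Plxna1* and *Efnb3* were each quantified on a single transcript. *Epha4-201* held 78.0% ± 4.69 of the gene's TPM in vehicle-treated and 79.6% ± 7.74 in MCH-treated wells. *Efnb2* was split between the full-length *Efnb2-201* (80.9% ± 4.25 and 76.2% ± 3.32) and the short *Efnb2-202*, and *Efnb2-201* had a log2 fold change of -0.17 (SE 0.08). *Ephb2* was spread over *Ephb2-201* (58.0% of TPM over all wells), *Ephb2-203* (20.6%) and *Ephb2-202* (16.6%), with log2 fold changes of 0.05 (SE 0.08), -0.02 (SE 0.24) and 0.35 (SE 0.09, adjusted *P* = 0.881). In *Sema6a*, the main *Sema6a-202* (63.4%) had a log2 fold change of 0.02 (SE 0.07) and *Sema6a-201* (10.5%) one of -0.82 (SE 0.50).

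Signaling partners of the 3 systems were read from lists of 57 genes, all of which were tested. Without a block, 0 of them passed in edgeR, where 0.234% of all genes did. With either block 2 passed as higher and 3 as lower, 5 of 57, where 3.98% of all genes passed with the replicate block and 4.46% with the other. Both higher ones were in the Slit list, namely *Flrt1* and *Flrt3*, membrane proteins of which FLRT3 is known to bind Robo1. *Flrt1* had 25.0 ± 2.10 CPM in vehicle-treated and 31.1 ± 1.62 CPM in MCH-treated wells (log2 fold change 0.32, SE 0.07, adjusted *P* = 0.155, and 0.0051 with the replicate block). *Flrt3* had 44.8 ± 0.914 and 52.0 ± 4.05 CPM (log2 fold change 0.21, SE 0.06, adjusted *P* = 0.266, and 0.0207 with the replicate block). The related *Flrt2* had a log2 fold change of -0.13 (SE 0.09, adjusted *P* = 0.776, and 0.106 with the replicate block). In the Eph list, *Ngef*, which encodes the exchange factor ephexin downstream of EphA4, had 94.2 ± 8.35 and 79.5 ± 13.7 CPM (log2 fold change -0.25, SE 0.12, adjusted *P* = 0.642, and 0.00292 with the replicate block). *Rasa1*, a RAS GTPase-activating protein, had a log2 fold change of -0.17 (adjusted *P* = 0.0234 with the replicate block). In the semaphorin list, *Mical2*, an enzyme that oxidizes actin, had one of -0.12 (adjusted *P* = 0.0109 with the replicate block). The medians of the semaphorin, Eph and Slit lists were 0.04, 0.03 and 0.05.

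Members were also compared between replicates 1 and 2 and replicates 3 and 4. The 4 wells of each side, 2 per treatment, did not overlap for 25 members of 56 tested (44.6%), where 29.6% of all genes did not, and no test was made. In TPM summed over transcripts the count was 18 (32.1%), where 23.1% of all genes did not overlap. Of the 25 in CPM, 16 were higher in replicates 3 and 4 and 9 in replicates 1 and 2. *Ephb4* (0.736 ± 0.176 against 2.56 ± 0.630 CPM), *Epha2* and *Plxnb1* had the largest ratios of replicates 3 and 4 over replicates 1 and 2. *Plxnb1*, a receptor of *Sema4d*, had 16.1 to 16.3 CPM in replicates 1 and 2 and 39.3 to 42.0 CPM in replicates 3 and 4, which is 2.52 times as much. *Plxnb2* had 50.8 ± 3.05 against 84.3 ± 2.16 CPM, *Sema5b* 9.49 ± 0.881 against 16.7 ± 1.11 CPM and *Efnb3* 215 ± 3.48 against 290.3 ± 7.29 CPM. Higher in replicates 1 and 2 were *Epha10* (34.0 ± 2.31 against 22.2 ± 2.02 CPM), *Epha6*, *Sema3c*, *Slit1*, *Epha5* (247 ± 6.95 against 195 ± 3.74 CPM), *Epha7*, *Plxna4*, *Ephb6* and *Robo2*.

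Of the 13 Eph receptors, 10 did not overlap between the sides in CPM (76.9%, against 29.6% of all genes), 5 in each direction, and 8 in TPM (61.5%, against 23.1%), where *Epha7* and *Ephb6* overlapped. The 5 that were higher in replicates 1 and 2 (*Epha5*, *Epha6*, *Epha7*, *Epha10* and *Ephb6*) each had a mean above 10 TPM. The 5 that were higher in replicates 3 and 4 (*Epha2*, *Epha8*, *Ephb1*, *Ephb3* and *Ephb4*) had at most 5.27 TPM. All 3 ephrins that did not overlap, *Efnb1*, *Efnb2* and *Efnb3*, were of the B class and higher in replicates 3 and 4. The ratio of ephrin to Eph receptor TPM was 0.804 to 0.870 in the wells of replicates 1 and 2 and 1.17 to 1.37 in those of replicates 3 and 4.

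Cell type markers moved with the sides as well. All 9 astrocyte markers were higher in every well of replicates 3 and 4 than in any of replicates 1 and 2, and their summed level was 1095 to 1207 CPM against 2344 to 2682 CPM. Neuronal markers summed to 8942 to 9286 CPM in replicates 1 and 2 and 8246 to 8377 CPM in replicates 3 and 4. Inhibitory neuron markers summed to 2750 to 2997 and 2228 to 2500 CPM. Only 5 of 10 neuronal and 6 of 9 inhibitory neuron markers did not overlap, all higher in replicates 1 and 2. *Map2* (1323 against 1286 CPM) and *Rbfox3* (136 against 135 CPM) had similar means. *Prox1* (55.9 against 66.5 CPM) and *Vip* (24.9 against 27.4 CPM) had the higher mean in replicates 3 and 4. The sums of the oligodendrocyte lineage (68.3 to 79.0 against 147 to 169.7 CPM), of microglia (5.91 to 7.996 against 9.94 to 13.7 CPM) and of fibroblasts and vessels (22.1 to 28.3 against 60.2 to 66.6 CPM) were also higher in replicates 3 and 4. *Olig1* (24.3 against 92.5 CPM) made up most of the difference in the oligodendrocyte lineage, of whose 7 tested markers 5 did not overlap, while *Pdgfra* (1.60 against 1.66 CPM) and *Mbp* (33.6 against 36.4 CPM) had similar means. *Dcn* (15.6 against 42.1 CPM) made up most of that in fibroblasts and vessels, of whose 9 tested markers 8 did not overlap. Of the 8 microglial markers 5 were tested and 3 did not overlap, and *Csf1r* (3.215 against 2.947 CPM) had the lower mean in replicates 3 and 4. The part of these markers in the differences of the members was not tested. Between the treatments, the astrocyte sum ranged from 1095 to 2537 CPM in vehicle-treated and 1162 to 2682 CPM in MCH-treated wells.

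**Figure D5:**
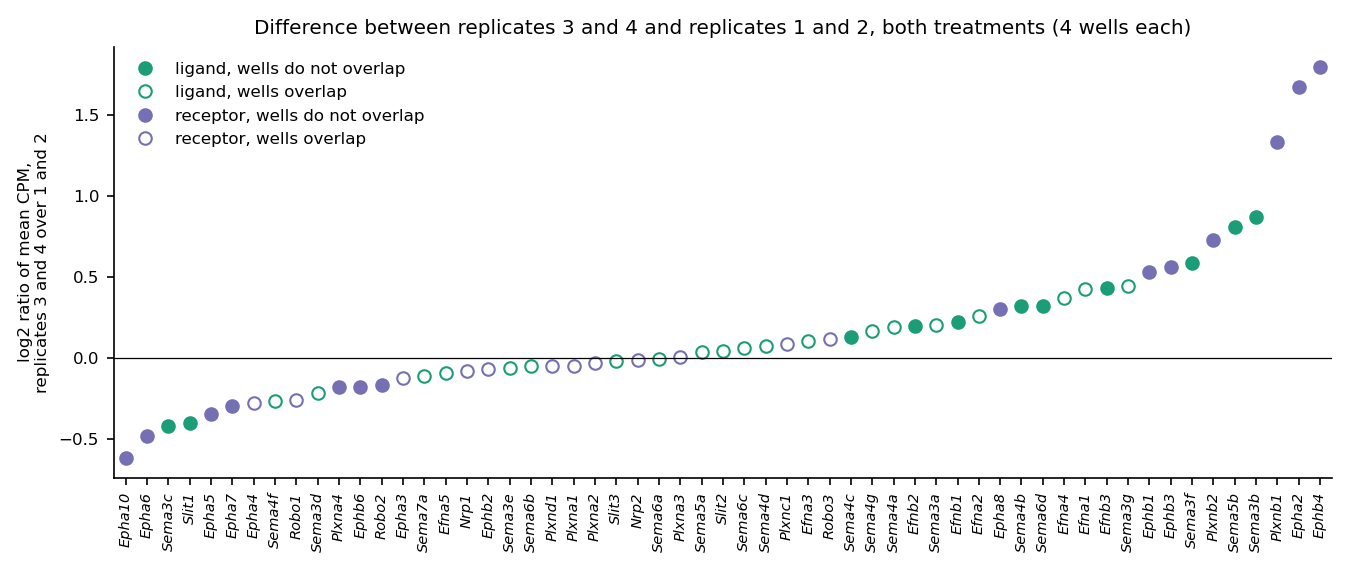
Log2 ratio of the mean CPM in replicates 3 and 4 over that in replicates 1 and 2, with 4 wells on each side and both treatments pooled, for the 57 members in order of value; filled points mark members whose wells do not overlap between the sides. The values run from -0.61 (*Epha10*) to 1.80 (*Ephb4*), with *Nrp1* at -0.08 and *Plxna1* at -0.04 near the middle.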

How the data were processed

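RNA-seq of 8 wells was analysed. Per the labels and the study's methods, the authors ran nf-core/rnaseq with Salmon on the GRCm38 genome. The deposited gene table holds estimated counts, not scaled for depth or length. The deposited transcript tables hold estimated counts and TPM, which Salmon had corrected for transcript length and library size. Identifiers were matched to GENCODE vM21, which named 98.8% of genes although the authors may have used another annotation.

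Counts were rounded and fitted in R 4.3.3 with edgeR 4.0.16 (TMM, filterByExpr with count minimum 10 and total minimum 15, robust quasi-likelihood F test, no block) over all 14962 genes that passed, with Benjamini–Hochberg adjustment and a threshold of 0.05. The SE is the log2 fold change over the square root of F. CPM use TMM factors. Alternatives were DESeq2 1.42.0, limma 3.58.1 (voom), DESeq2 size factors, no filter, a length offset, blocks, fits within sides and leaving out each well. A side is replicates 1 and 2 or replicates 3 and 4. The fit within each side was added after the data were seen. The same fit was used for transcripts. Scripts were tested on simulated counts.

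Deviations from treatment means correlated at 0.445 to 0.545 in the 4 pairs with the same number, and at 0.475 to 0.521 between other numbers of the same side. Wells of the same number thus correlated no more than wells of the same side, and the labels do not say what a number marks. These values therefore do not show a pairing by number. They are no test of the sides either, since the sides were read from these same counts. Members, sides and lists were chosen with earlier results of these data known. Genes given by well are the 4 lowest and highest log2 fold changes, members whose treatments do not overlap, up to 6 called with a block, and the most abundant ligand and receptor of each system. No interval was computed for depth, and counting error only is covered by the floor of 3 counts used for absent markers.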

Additional observations from a re-analysis of the deposited data

Results flagged for a closer look

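A single well stood far from the other 3 of its treatment by Dixon's test for 4 of 114 groups of 4 wells, where chance flags about 1 in 20 groups. In MCH replicate 1, *Slit3* had 153 CPM against 127 to 128 CPM in the other MCH-treated wells, and *Sema3d* had 1.76 CPM against 1.13 to 1.19 CPM. In vehicle replicate 1, *Plxna4* had 263 CPM against 248 to 249 CPM. In vehicle replicate 3, *Sema6a* had 55.0 CPM against 53.1 CPM in each of the others.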

How the results depend on the processing

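Against 35 genes and 0 members called without a block, 170 genes and 1 member were called by DESeq2, 596 and 5 with the replicate block, 668 and 6 with the side block, 269 and 6 within replicates 1 and 2, and 189 and 2 within replicates 3 and 4. The length offset left 7 genes, and leaving out 1 well left 4 to 29 genes and 0 members. The cause was not tested. The replicate block changed the call of no member beyond these 5. The side block called 6 transcripts, none of a member, and leaving out 1 well 0 to 1. Without the filter on low counts, 266 genes and 8 members (all with the higher effect in replicates 1 and 2) differed in MCH effect between the sides, against 4 and 0. In TPM, 18 members did not overlap between the sides, against 25 in CPM. Leaving out 1 well moved the ligand median from 0.05 to between 0.0028 and 0.10 and the receptor median from 0.06 to between 0.060 and 0.16. Signs changed, with no call, on leaving out 1 well for *Efnb3* (-0.0736 to 0.0952), *Robo2* (-0.0427 to 0.0450) and *Sema3b* (-0.348 to 0.0543), and for *Robo2* also with the length offset (0.127) and within replicates 1 and 2 (0.0302). *Sema6b* changed sign within replicates 3 and 4 (-0.0375). No other member given by well changed sign in these fits. Depth limits *Epha2*, *Ephb4* and *Sema3b*, which had 4 to 84 counts per well.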
